A study of Mus musculus with 8 samples.

Results

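Chemokine transcripts were followed in primary mouse peritoneal mesothelial cells (MCs) that lack caveolin-1 or carry it, with and without mechanical stretch. The genes examined were a chosen list of 10 chemokines (Cxcl1, Cxcl2, Cxcl5, Cxcl10, Cxcl12, Cxcl16, Ccl2, Ccl7, Ccl5 and Cx3cl1), matched by symbol to a table of 13687 genes. Of these, 9 had a row and all 9 passed the filter on low values, while Ccl5 had no row in the table used here and was not analysed. The MCs came from the digested parietal peritoneum of B6.Cg-CAV1tm1mls/J mice, which are deficient in CAV1 in the whole animal, and of their WT littermates. They were grown to confluence and then left static or exposed to stretch for 24 h. There were 4 animals, 2 of each genotype, and each gave 1 static and 1 stretched culture. This made 8 polyA RNA-seq libraries in 4 groups of 2 cultures. Replicate 1 and replicate 2 name the 2 animals of a genotype, the age of the mice was not given in the sources used here, and mice of both sexes were used for ex vivo work.

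The values are TMM-normalized CPM, the reads of a gene per 1000000 reads of a library total adjusted by the TMM method, called CPM below. Totals ranged from 9777738 to 21203938 reads, each stretched library was deeper than each static one, and 3 reads, taken as the smallest detectable amount, correspond to 0.146 to 0.308 CPM, a floor that covers counting error only. The targeted gene, Cav1, was at 247 to 764 CPM in the WT cultures and at 12.8 to 34.5 CPM in the CAV1-/- cultures. Markers of other cell types were detected beside those of MCs. All 12 mesothelial markers in the table were detected, at a summed 2963 to 3903 CPM in WT and 854 to 1116 CPM in CAV1-/- cultures, and 8 fibroblast markers summed to 11177 to 26474 CPM across both genotypes. The 16 leukocyte markers with a row summed to 5367 and 5211 CPM in the static and stretched cultures of CAV1-/- replicate 1. They summed to 353 and 387 CPM in CAV1-/- replicate 2, 490 and 513 CPM in WT replicate 1 and 93.7 and 100.5 CPM in WT replicate 2. The 2 cultures of CAV1-/- replicate 1 are therefore called leukocyte-rich here, and values without them are given beside the results that move with them. In bulk RNA, a change in the number of cells of a type and a change in the RNA per cell cannot be told apart.

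Chemokines are small secreted proteins that bind heparan sulfate on cell surfaces and guide leukocytes through receptors coupled to G proteins. MCs line the peritoneal cavity and are a known source of them in peritonitis and peritoneal dialysis. Cxcl1, Cxcl2 and Cxcl5 act on Cxcr2 of neutrophils, Ccl2 and Ccl7 on Ccr2 of monocytes, Cxcl10 on Cxcr3 of activated T cells and NK cells, and Cxcl12 on Cxcr4. Cxcl16 and Cx3cl1 are made as membrane proteins that tether cells and are released by the proteases Adam10 and Adam17. In inflammation many chemokine genes are switched on by NF-κB, and Cxcl10 also by interferon.

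The promoters of 5 of the 9 genes were in the RefSeq promoter table used (GRCm38.p6), which held Cxcl1, Cxcl2, Cxcl10, Cxcl12 and Cx3cl1, and 3 of them matched the NF-κB consensus. They are printed to show how alike the promoters of Cxcl1 and Cxcl2 are at that place, since the levels of these neighbours are compared below. The windows are the 250 bases before the transcription start, at chr5:90890995-90891244 on the plus strand for Cxcl1, chr5:90903649-90903898 on the plus strand for Cxcl2 and chr5:92348890-92349139 on the minus strand for Cxcl10. Capitals mark matches to the NF-κB consensus on either strand, with overlapping matches joined.
Cxcl1: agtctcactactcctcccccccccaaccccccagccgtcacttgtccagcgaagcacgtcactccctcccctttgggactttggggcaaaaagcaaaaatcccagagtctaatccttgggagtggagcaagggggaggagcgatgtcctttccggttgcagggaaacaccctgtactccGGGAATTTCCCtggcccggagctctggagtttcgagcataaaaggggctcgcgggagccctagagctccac
Cxcl2: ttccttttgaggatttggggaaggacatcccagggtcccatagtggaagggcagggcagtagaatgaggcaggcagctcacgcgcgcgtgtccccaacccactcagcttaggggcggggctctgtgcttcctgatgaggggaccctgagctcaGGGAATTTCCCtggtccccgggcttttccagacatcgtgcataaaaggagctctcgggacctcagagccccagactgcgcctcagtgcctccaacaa
Cxcl10: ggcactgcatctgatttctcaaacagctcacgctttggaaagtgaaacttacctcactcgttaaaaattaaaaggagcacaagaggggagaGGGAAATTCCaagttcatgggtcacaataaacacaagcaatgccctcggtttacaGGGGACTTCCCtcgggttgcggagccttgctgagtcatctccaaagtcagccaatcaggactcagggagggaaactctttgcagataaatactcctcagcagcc
The match of Cxcl1 began 71 bases before the start and that of Cxcl2 97 bases before it, and both consisted of the same letters. Cxcl10 had a match 159 bases and another 104 bases before the start, an AP-1 match (TGANTCA) at 74 bases and a match to the core of the interferon-stimulated response element (ISRE) at 213 bases. Of all 32851 promoter windows of the same length, 7.25% held an NF-κB match, 6.75% an AP-1 match and 2.98% the ISRE core, searched on both strands. Cxcl12 and Cx3cl1 had none of these 3 motifs in their windows. The RefSeq starts used lie past the GENCODE starts by 4 bases for Cxcl1, 28 bases for Cxcl2 and 171 bases for Cx3cl1. Only part of each of these windows thus comes before the GENCODE start, and the distances of 71 and 97 bases depend on the starts used. A match describes the letters and not the binding of a factor.

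Per length of exon, the most abundant of the 9 transcripts were Ccl2, at a mean of 94.4 CPM per kb over the 8 cultures, Ccl7 at 63.6 and Cxcl5 at 63.0. Cxcl16 followed at 22.4 CPM per kb, Cxcl1 at 16.1 and Cxcl12 at 14.1. Cx3cl1, at 3.04 CPM per kb, Cxcl2, at 1.62, and Cxcl10, at 1.10, were scarce. The spread between cultures differed as much as the level. From the lowest to the highest culture, the level of Cxcl5 differed 146-fold and that of Cxcl1 64.0-fold, against 2.77-fold for Ccl2 and 2.85-fold for Cxcl12.

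**Figure D1:**
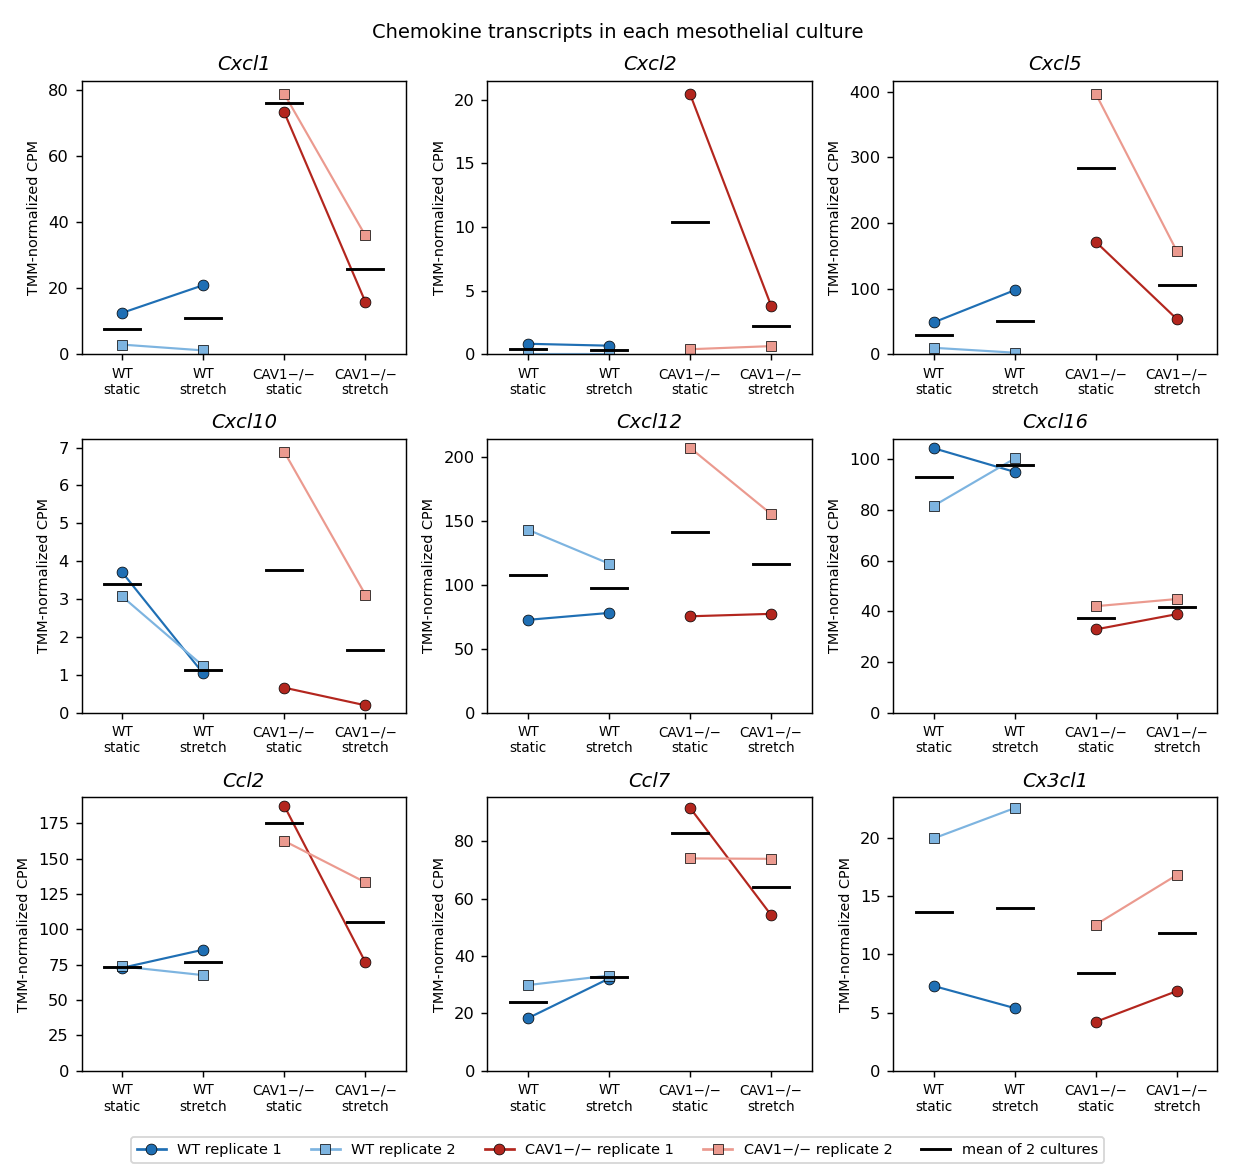
Level of each chemokine in the 8 cultures, in TMM-normalized CPM on a linear axis starting at 0, with the 4 groups on the horizontal axis. Points are cultures, lines join the static and stretched culture of 1 animal and black bars are means of 2 cultures. Ccl7 was higher and Cxcl16 lower in each CAV1-/- culture than in each WT culture, and Cxcl2 was highest in the 2 cultures of CAV1-/- replicate 1.

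The first question was which chemokines differ with the loss of CAV1 in static culture. Cxcl1, Cxcl5, Ccl2 and Ccl7 were higher in both static CAV1-/- cultures than in both static WT cultures, and Cxcl16 was lower in both. Such a separation of 2 against 2 cultures was seen in 36.9% of all genes. After Benjamini-Hochberg adjustment over the 13665 genes tested by limma, 0 of the 9 chemokines passed (adjusted p from 0.0937 to 0.979), against 0.0732% of all genes (10 genes). At an unadjusted p under 0.05, 4 of the 9 passed, namely Cxcl1, Ccl2 and Ccl7, which were higher in CAV1-/- MCs, and Cxcl16, which was lower. The share of all genes at that threshold was 8.17%. The median log2 fold change was 1.24 over the 9 chemokines and -0.01 over all genes tested. Other tests differed in their calls. Taking the replicate number as a block, Cxcl16 and Ccl7 passed (both adjusted p = 0.0346 by limma with the replicate block), where 1.8% of all genes did. The number pairs different animals in a genotype comparison. On the recovered reads, DESeq2 called Cxcl16 (adjusted p = 3.33e-06), Ccl7 (6.41e-06) and Ccl2 (0.00388), where it called 2.26% of all genes, and the quasi-likelihood test of edgeR called 0 of the 9 and 0.0146% of all genes.

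Ccl2, the main attractant of monocytes (ENSMUSG00000035385, chromosome 11 of GRCm38 from 82035571 to 82037453), was at 72.8 and 73.7 CPM in static WT MCs and at 187 and 162 CPM in static CAV1-/- MCs. On stretch it was at 85.6 and 67.6 CPM in WT and at 76.9 and 133 CPM in CAV1-/- MCs. The static genotypes were separated by more than either differed between animals, whereas the stretched genotypes overlapped, through the leukocyte-rich culture at 76.9 CPM. In static culture the log2 fold change on the log2(CPM + 1) scale, given as CAV1-/- over WT, was 1.24 ± 0.27 (SE; 95% interval 0.59 to 1.89; unadjusted p = 0.00336 and adjusted p = 0.217 by limma). With stretch it was 0.41 ± 0.27 (interval -0.24 to 1.06; adjusted p = 0.956). It was 0.80 without both cultures of CAV1-/- replicate 1 (unadjusted p = 0.0122 by limma), and 0.015 without the stretched culture of CAV1-/- replicate 2.

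Ccl7 (ENSMUSG00000035373), which lies beside Ccl2 on chromosome 11 from 82045712 to 82047525, attracts monocytes through the same receptor. It was at 18.3 and 29.9 CPM in static WT, 32.1 and 33.2 CPM in stretched WT, 91.6 and 74.0 CPM in static CAV1-/- and 54.3 and 73.9 CPM in stretched CAV1-/- MCs. The lowest CAV1-/- culture, at 54.3 CPM, stood above the highest WT culture, at 33.2 CPM. Such an order of all 4 CAV1-/- cultures above all 4 WT cultures was seen in 3.86% of genes, and Ccl7 was the only one of the 9 with it. Group means were 24.1 ± 8.16 CPM (SD, n = 2) in static WT and 82.8 ± 12.5 CPM (SD, n = 2) in static CAV1-/- MCs. The log2 fold change was 1.77 ± 0.27 in static culture (SE; interval 1.12 to 2.42; unadjusted p = 0.000505 and adjusted p = 0.09998 by limma). On stretch it was 0.93 ± 0.27 (interval 0.29 to 1.58; unadjusted p = 0.0121 and adjusted p = 0.499 by limma). Without both cultures of CAV1-/- replicate 1 the static difference was 1.62 and the stretched one 1.15 on the log2 scale.

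Cxcl16 (ENSMUSG00000018920, chromosome 11 from 70453983 to 70459984, minus strand), a membrane-bound ligand of Cxcr6 that also takes up oxidized lipoprotein, went the other way. It was at 104 and 81.7 CPM in static WT and 95.1 and 100.4 CPM in stretched WT MCs. In CAV1-/- MCs it was at 32.9 and 42.0 CPM in static and 38.9 and 44.9 CPM in stretched culture. Each of the 4 CAV1-/- levels lay under each of the 4 WT levels, an order seen in 5.88% of genes and in no other of the 9. The log2 fold change was -1.29 ± 0.18 in static culture (SE; interval -1.73 to -0.85; unadjusted p = 0.000343 and adjusted p = 0.0937 by limma). On stretch it was -1.21 ± 0.18 (interval -1.64 to -0.77; unadjusted p = 0.000498 and adjusted p = 0.144). Across the 8 libraries the level of Cxcl16 went against that of Ccl7 (Pearson r = -0.93 of log2 levels, a description of 8 libraries that share animals). Mesothelial markers moved with it. All 12 were lower in CAV1-/- than in WT MCs in both genotype comparisons, with a median log2 fold change of -2.27 in static and -2.56 in stretched culture, and the part of this in the level of Cxcl16 was not tested. Of these markers, Krt8, a keratin of simple epithelia, fell by 2.66 on the log2 scale (adjusted p = 0.0134 by limma) and Lrrn4 fell by 3.57 (adjusted p = 0.0361 by limma) in static culture.

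Cx3cl1 (ENSMUSG00000031778, chromosome 8), the other membrane-bound chemokine and the ligand of Cx3cr1, followed the animal. It was at 7.28 and 5.37 CPM in the static and stretched cultures of WT replicate 1 and at 19.9 and 22.5 CPM in those of WT replicate 2. In CAV1-/- MCs it was at 4.20 and 6.84 CPM in replicate 1 and 12.5 and 16.8 CPM in replicate 2. Replicate 2 exceeded replicate 1 in both genotypes, and the genotypes overlapped. The share of all genes with this order of animals was not counted. The log2 fold change was -0.65 ± 0.85 in static (SE; interval -2.73 to 1.43) and -0.05 ± 0.85 in stretched culture (interval -2.13 to 2.02). These intervals hold changes of several fold in either direction.

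The ligands of Cxcr2 were among the members that differed most between static genotypes, and varied most between animals. Cxcl1 (ENSMUSG00000029380, chromosome 5 from 90891241 to 90893115), the keratinocyte-derived chemokine, was at 12.6 and 2.99 CPM in static WT and 73.3 and 78.8 CPM in static CAV1-/- MCs. Upon stretching it was at 21.0 and 1.23 CPM in WT and 15.96 and 36.0 CPM in CAV1-/- MCs. The 2 static CAV1-/- cultures were the highest of the 8, and the genotypes overlapped on stretch, through the leukocyte-rich culture at 15.96 CPM. The log2 fold change was 3.39 ± 1.12 in static culture (SE; interval 0.65 to 6.12; unadjusted p = 0.0231 and adjusted p = 0.481 by limma) and 1.84 ± 1.12 on stretch (interval -0.90 to 4.58). The value on stretch was 2.40 without both cultures of CAV1-/- replicate 1, 0.19 without the stretched culture of WT replicate 2 and 3.49 without that of WT replicate 1.

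Cxcl5 (ENSMUSG00000029371, chromosome 5 from 90759360 to 90761624), an attractant of neutrophils made by epithelial cells, had the same order of cultures at a higher level. It was at 48.9 and 10.2 CPM in static WT, 98.0 and 2.71 CPM in stretched WT, 171 and 397 CPM in static CAV1-/- and 53.8 and 157 CPM in stretched CAV1-/- MCs. Its log2 fold change was 3.47 ± 1.59 in static (SE; interval -0.41 to 7.35; adjusted p = 0.677 by limma) and 2.28 ± 1.59 in stretched culture (interval -1.60 to 6.16). In WT replicate 2, Cxcl1, Cxcl2 and Cxcl5 were lower in both cultures than in any other animal, as were 8.82% of all genes. WT replicate 2 was also the animal with the fewest leukocyte marker reads, and the part of that in these levels was not tested. Without its stretched culture, the log2 fold change of Cxcl5 on stretch was -0.09 in place of 2.28, and without both cultures of CAV1-/- replicate 1 it was 3.04.

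Cxcl2 (ENSMUSG00000058427, chromosome 5 from 90903871 to 90905938), also known as MIP-2, was the scarcest of these ligands. It was at 0.839 and 0.690 CPM in the static and stretched cultures of WT replicate 1, and 0 reads were found in both cultures of WT replicate 2, which allows up to 0.242 and 0.185 CPM. In CAV1-/- replicate 1 it was at 20.4 CPM in static and 3.83 CPM in stretched culture, against 0.411 and 0.657 CPM in CAV1-/- replicate 2. These last 2 levels rest on 4 and 12 reads and lie within the range of the WT cultures. The log2 fold change was 2.02 ± 1.27 in static culture (SE; interval -1.07 to 5.11), and without both cultures of CAV1-/- replicate 1 it was 0.06. Since the WT levels are near 0, the size of this fold depends on the pseudocount, with 1.12 at a pseudocount of 5, 3.40 at 0.1, 4.58 by edgeR and 4.67 by DESeq2. Cxcl1, Cxcl2 and Cxcl3 are close paralogs, as are Ccl2 and Ccl7, and reads that fit several of them were shared out by estimation.

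Cxcl10 (ENSMUSG00000034855, chromosome 5 from 92346638 to 92348889, minus strand), the interferon-induced ligand of Cxcr3, was low throughout. It was at 3.71 and 3.07 CPM in static WT and 1.04 and 1.23 CPM in stretched WT MCs. CAV1-/- replicate 1 had 0.659 CPM in static and 0.194 CPM in stretched culture, from 8 and 4 reads, and CAV1-/- replicate 2 had 6.89 and 3.12 CPM. The lowest and the highest culture were thus both CAV1-/-, and the genotype difference was -0.27 ± 0.85 in static (SE, log2; interval -2.34 to 1.79) and 0.06 ± 0.85 in stretched culture (interval -2.01 to 2.12). Without both cultures of CAV1-/- replicate 1, the static difference was 0.85.

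Cxcl12 (ENSMUSG00000061353, chromosome 6 from 117168535 to 117181367), the ligand of Cxcr4 made by many stromal cells, was at 72.5 and 143 CPM in static WT and 77.9 and 116 CPM in stretched WT MCs. It was at 75.2 and 207 CPM in static and 77.1 and 155 CPM in stretched CAV1-/- MCs. All 4 cultures of the replicate 1 animals lay between 72.5 and 77.9 CPM, and all 4 of the replicate 2 animals were above them. How many of all genes had this order was not counted. The sum of the 8 fibroblast markers was ordered in the same way, at 11177 to 12361 CPM in the replicate 1 animals. It was at 18431 to 26474 CPM in the replicate 2 animals. Col1a1 alone had a mean of 10038 CPM over the 8 cultures, so the sum need not hold for each marker. In static culture 3 of the 8 were higher and 5 lower in CAV1-/- than in WT MCs. The part of fibroblasts in the level of Cxcl12 was not tested. The genotype difference of Cxcl12 was 0.29 ± 0.60 in static (SE, log2; interval -1.18 to 1.76) and 0.20 ± 0.60 in stretched culture (interval -1.27 to 1.67).

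Among stretched cultures, Ccl7 was higher and Cxcl16 lower in both CAV1-/- cultures than in both WT cultures. The groups were separated in either direction in 30.5% of all genes. These were also the only members at an unadjusted p under 0.05 by limma, where 6.26% of all genes were. After adjustment 0 of the 9 passed (adjusted p from 0.144 to 1.000 by limma), against 0.0585% of all genes (8 genes). DESeq2 called Cxcl16 (adjusted p = 1.51e-05) and 1.73% of all genes, edgeR called 0 of the 9 and 0.0439% of all genes, and the replicate block called 0 of the 9 and 0.805%. The median log2 fold change of the 9 was 0.41, and that of all genes 0. Against the static difference, the genotype difference on stretch was smaller for Cxcl1, Cxcl5, Cxcl2, Ccl2 and Ccl7, and this change is the interaction tested below.

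**Figure D2:**
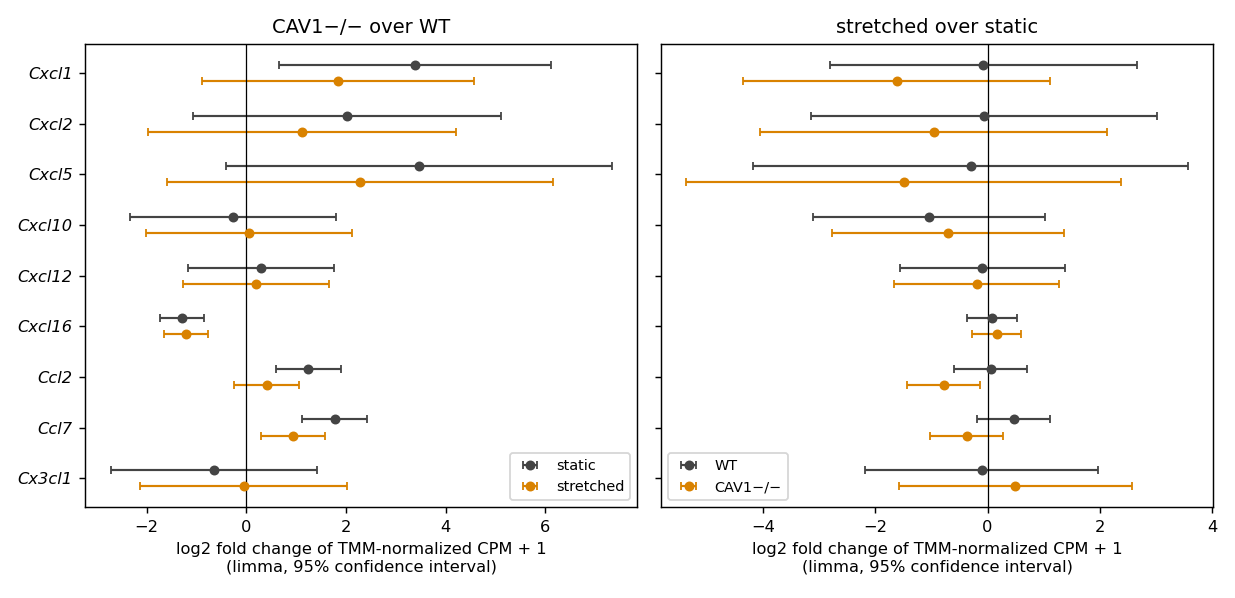
Log2 fold change of each chemokine by limma, on the log2(TMM-normalized CPM + 1) scale, for CAV1-/- over WT MCs (left, static and stretched) and for stretched over static MCs (right, WT and CAV1-/-). Points are estimates from 8 cultures and bars are 95% confidence intervals. Intervals for Cxcl16 and Ccl7 lie on 1 side of 0 in both genotype comparisons, and those of Cxcl1, Cxcl2 and Cxcl5 are the widest.

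The next question was whether stretch moved the chemokines in either genotype. In WT MCs, 0 of the 9 passed after adjustment and 0 at an unadjusted p under 0.05 by limma, against 0.0% and 2.27% of all genes. DESeq2 and edgeR called 0 of the 9, and 0.022% and 0.0% of all genes. With the animal as a replicate block 0 passed after adjustment (0.0% of all genes), and Cxcl10 was at an unadjusted p of 0.00307 by limma, where 14.5% of all genes were under 0.05. The separated members were Ccl7, at 18.3 and 29.9 CPM in static and 32.1 and 33.2 CPM in stretched culture, and Cxcl10, at 3.71 and 3.07 against 1.04 and 1.23 CPM, where 31.1% of all genes were separated. For Ccl7 the log2 fold change, stretched over static, was 0.46 ± 0.27 (SE; interval -0.18 to 1.11), and for Cxcl10 it was -1.04 ± 0.85 (interval -3.10 to 1.03). The other 7 had estimates between -0.30 and 0.08. For Cxcl1 and Cxcl5 the 2 animals went opposite ways. Cxcl5 was at 98.0 CPM stretched against 48.9 CPM static in WT replicate 1, and at 2.71 against 10.2 CPM in WT replicate 2.

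In CAV1-/- MCs, 7 of the 9 estimates were below 0, with a median log2 fold change of -0.71 against 0.00 over all genes. Cxcl1, Cxcl5, Ccl2 and Ccl7 were lower in both stretched cultures than in both static ones, and 24.3% of all genes were separated in either direction. For Ccl7 this separation rests on 73.9 against 74.0 CPM in CAV1-/- replicate 2, an order that median-of-ratios scaling reverses. After adjustment by limma 0 of the 9 passed (adjusted p = 1.000 for each), and 1, Ccl2, was at an unadjusted p under 0.05, against 0.0% and 2.09% of all genes. DESeq2 and edgeR called 0 of the 9, and 0.0512% and 0.0% of all genes. With the animal as a replicate block, 0 passed after adjustment (0.00732% of all genes). At an unadjusted p under 0.05 by that fit of limma there were 5, namely Cxcl1, Cxcl5, Cxcl10 and Ccl2, which were lower on stretch, and Cx3cl1, which was higher, against 13.3% of all genes. Ccl2 was at 187 and 162 CPM in static and 76.9 and 133 CPM in stretched culture, a log2 fold change of -0.78 ± 0.27 (SE; interval -1.43 to -0.13; unadjusted p = 0.0262 by limma). Without both cultures of CAV1-/- replicate 1 it was -0.28 (unadjusted p = 0.258 by limma), and without its stretched culture alone -0.39 (unadjusted p = 0.101 by limma). Cxcl1, at 73.3 and 78.8 against 15.96 and 36.0 CPM, differed by -1.62 ± 1.12 (interval -4.36 to 1.12), and Cxcl5 by -1.49 ± 1.59 (interval -5.37 to 2.38). Cxcl16 and Cx3cl1 were the 2 members with estimates above 0, at 0.16 ± 0.18 and 0.49 ± 0.85.

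Since each animal gave both cultures, stretch could also be read within animals. Cxcl10 was lower in the stretched culture of all 4 animals, by 0.47 to 1.21 on the log2(CPM + 1) scale, as were 16.9% of all genes. Cxcl1, Cxcl5, Cxcl10, Ccl2 and Ccl7 were lower on stretch in both CAV1-/- animals, an order that 30.9% of all genes had. For Ccl7 the difference in CAV1-/- replicate 2 was -0.0027, from 73.9 against 74.0 CPM, and in replicate 1 it was -0.74. Cxcl2 differed by -2.15 in CAV1-/- replicate 1 and by 0.23 in replicate 2. In the interaction of genotype and stretch, Ccl2 had an estimate of -0.83 ± 0.38 (SE, log2; unadjusted p = 0.0689) and Ccl7 of -0.84 ± 0.38 (unadjusted p = 0.0665), both with adjusted p = 1.000 by limma. Without both cultures of CAV1-/- replicate 1 they were -0.34 and -0.47. None of the 9 was at an unadjusted p under 0.05 by limma (0.483% of all genes were), and 0 of the 9 passed after adjustment by limma, DESeq2 or edgeR (0.0% of all genes by each). With the animal as a replicate block, Cxcl1, Ccl2 and Ccl7 were at an unadjusted p under 0.05 by limma, against 4.25% of all genes, and 0 passed after adjustment. For the mean stretch effect over both genotypes, 0 of the 9 passed at either threshold by limma, against 0.0% and 4.73% of all genes, and DESeq2 and edgeR called 0 of the 9, and 0.249% and 0.0% of all genes. With the animal as a replicate block 0 of the 9 passed after adjustment (1.47% of all genes), and Cxcl1, Cxcl5 and Cxcl10 were at an unadjusted p under 0.05 by limma, against 21.0% of all genes. The estimates ran from -0.90 ± 1.13 for Cxcl5 to 0.19 ± 0.60 for Cx3cl1.

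**Figure D3:**
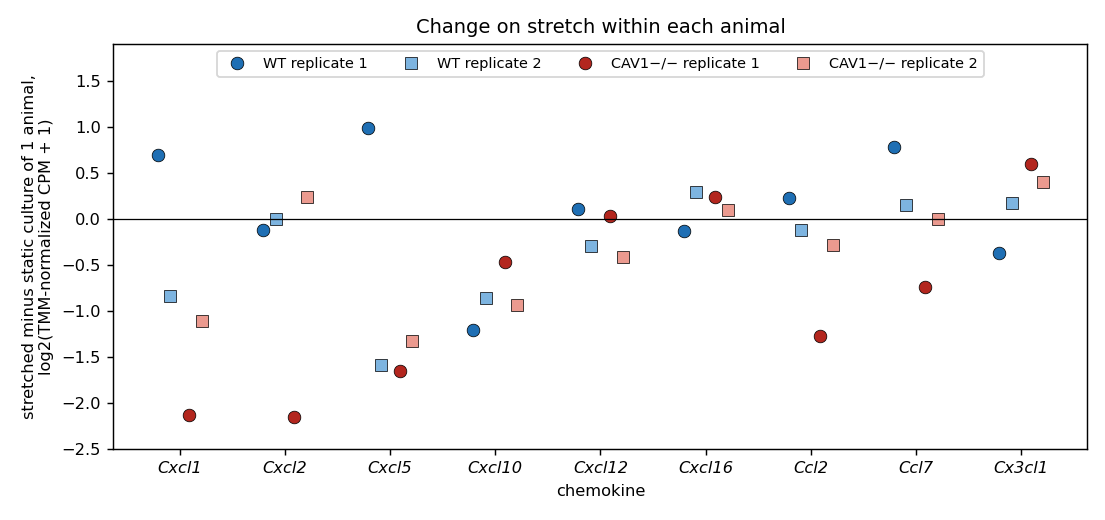
Difference between the stretched and the static culture of each animal, as log2(TMM-normalized CPM + 1), for the 9 chemokines on the horizontal axis. Each point is 1 animal, and no error is drawn since each animal gave 1 culture per condition. Cxcl10 lies below 0 in all 4 animals, while Cxcl1, Cxcl5, Ccl2 and Ccl7 lie above 0 in WT replicate 1 and below it in both CAV1-/- animals. The point of Ccl7 in CAV1-/- replicate 2 is at -0.0027.

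The cultures of CAV1-/- replicate 1 were then set against the other 6. Of the 16 leukocyte markers, 14 were highest in both of its cultures. Lyz2, the lysozyme of myeloid cells, was at 3648 and 3920 CPM there against 27.5 to 345 CPM in the other 6 cultures, and Itgam, an integrin of myeloid cells, at 314 and 205 against 4.497 to 21.2 CPM. Cd74 and H2-Ab1, which present antigen, were the exceptions. The B cell markers Cd79a and Ms4a1 were at 0.74 to 2.42 CPM in all cultures, the T cell markers Cd3e and Cd3d had no row, and the neutrophil marker S100a8 was at 5.19 and 3.64 CPM against at most 0.560 CPM elsewhere. A chemokine was said to follow these cultures when both stood above the other 6, as 12.2% of all genes did. Of the 9, only Cxcl2 followed them, at 20.4 and 3.83 CPM against at most 0.839 CPM. The lower of its 2 levels was 4.57 times the highest of the others. Cxcl2 reached 1 CPM only in these 2 cultures, so it passed the filter on low values through them alone. Any gene that passes in that way stands above the other 6, so this order was fixed in advance and tests nothing. Ccl2 and Ccl7 had their highest level in the static leukocyte-rich culture, at 187 and 91.6 CPM, but their stretched one, at 76.9 and 54.3 CPM, was below both cultures of CAV1-/- replicate 2.

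The rest did not follow them. Cxcl10 and Cxcl16 were lowest in both of these cultures, as were 12.2% of all genes. Cxcl5 and Cxcl1 were highest in static cultures of CAV1-/- replicate 2, where leukocyte markers summed to 353 CPM. Cxcl12 was highest in both cultures of CAV1-/- replicate 2, as were 9.89% of all genes. Cx3cl1 was highest in both of WT replicate 2, as were 8.90% of all genes. The part of the leukocytes in the level of any of the 9 was not tested. With CAV1-/- replicate 1 left out altogether, static CAV1-/- MCs are 1 culture. The static genotype differences were then 3.44 for Cxcl1, 4.07 for Cxcl5, 1.14 for Ccl2, 1.62 for Ccl7 and -1.12 for Cxcl16 on the log2 scale. With it they were 3.39, 3.47, 1.24, 1.77 and -1.29. For the rest they were 0.06 for Cxcl2, 0.85 for Cxcl10, 1.02 for Cxcl12 and 0.04 for Cx3cl1, against 2.02, -0.27, 0.29 and -0.65 with it.

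**Figure D4:**
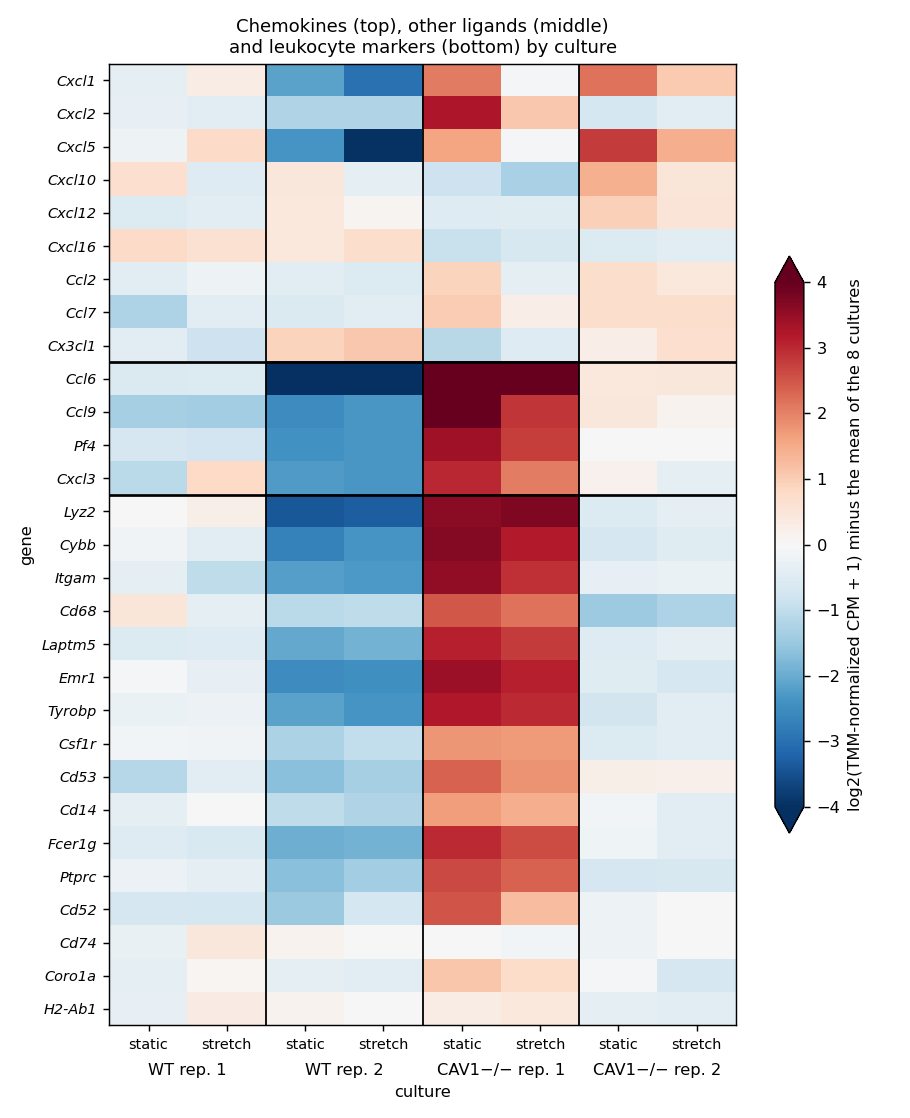
Deviation of each gene from its own mean over the 8 cultures, as log2(TMM-normalized CPM + 1), with cultures ordered by animal on the horizontal axis and the 9 chemokines, 4 other ligands and 16 leukocyte markers in rows. Red is above and blue below the mean, and colours are capped at 4 in either direction. Cxcl2, Ccl6, Ccl9, Pf4 and Cxcl3 share the red columns of CAV1-/- replicate 1 with 14 of the leukocyte markers, without Cd74 and H2-Ab1. None of the other 8 chemokines was highest in both of these cultures.

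Other chemokines of the system were read in the same way. Of 28 further ligands, 11 had a row, and 6 of these were highest in both leukocyte-rich cultures (Ccl6, Ccl9, Pf4, Cxcl3, Ccl25 and Ccl3), as were 12.2% of all genes. Ccl6, a CC chemokine of myeloid cells, was at 919 and 686 CPM there, at 49.8 and 50.1 CPM in CAV1-/- replicate 2, 24.2 and 24.8 CPM in WT replicate 1 and 1.29 and 0.681 CPM in WT replicate 2. Ccl9 was at 209 and 91.5 CPM in these cultures and at most 16.4 CPM elsewhere, Pf4, a chemokine also stored in platelets, at 148 and 95.3 against at most 13.3 CPM, and Cxcl3, a further ligand of Cxcr2, at 46.9 and 23.8 against at most 9.37 CPM. In the genotype comparisons 0 of the 11 passed after adjustment by limma, against 0.0732% of all genes in static and 0.0585% in stretched culture. In each of them 1 was higher at an unadjusted p under 0.05 by limma. The shares of all genes were 2.76% in static and 2.44% in stretched culture. The median log2 fold change of the 11 was 0.88 in static and 0.97 in stretched culture, against -0.01 and 0 over all genes.

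Few receptors had a row. Of 18 signalling receptors, 4 did, and 0 passed after adjustment by limma in any comparison, where at most 0.0732% of all genes passed. Ccr1 was at 43.8 and 29.5 CPM in the leukocyte-rich cultures and 0.484 to 5.09 CPM elsewhere, and Cxcr4, the receptor of Cxcl12, at 13.8 and 19.3 against 0.484 to 2.61 CPM. Cxcr2, the receptor of Cxcl1, Cxcl2 and Cxcl5, was at 0.989 to 3.80 CPM, with its highest level in CAV1-/- replicate 2. Ccr2, Cxcr3, Cxcr6 and Cx3cr1, through which the other members act, had no row in the table used here. Among the atypical receptors, which bind chemokines without classical signalling, Ackr3, which takes up Cxcl12, was at 2.80 and 3.07 CPM in static WT and 9.31 and 21.5 CPM in static CAV1-/- MCs (log2 fold change 1.95, adjusted p = 0.431 by limma). Ccrl2 was at 0.380 to 4.29 CPM and Ackr1 at 0 to 1.13 CPM.

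The proteases that release or trim these ligands were all in the table. Adam10 was at 172 to 310 CPM and Adam17 at 79.0 to 105 CPM across the 8 cultures. Mmp2, which cleaves Ccl7 and Cxcl12, was at 241 to 825 CPM, and Rhbdf1, a partner of Adam17, at 52.3 to 103 CPM. Mmp9, which also trims chemokines, was at 2.18 to 10.9 CPM in WT and 55.6 to 285 CPM in CAV1-/- cultures, with a log2 fold change of 4.76 in static culture (adjusted p = 0.143 by limma). Of 8 such genes, 1 passed after adjustment in each genotype comparison by limma, against 0.0732% of all genes in static and 0.0585% in stretched culture. Dpp4, the peptidase that trims and inactivates Cxcl10 and Cxcl12, was at 154 and 111 CPM in static WT and 7.09 and 6.78 CPM in static CAV1-/- MCs, and fell by 4.05 on the log2 scale (adjusted p = 0.0465 by limma). On stretch it was at 47.8 and 86.2 CPM in WT and 0.825 and 2.19 CPM in CAV1-/- MCs, and fell by 4.76 (adjusted p = 0.0265 by limma).

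Of 21 genes of NF-κB signalling and its feedback, 0 passed after adjustment by limma in any comparison, where at most 0.0732% of all genes did. In static culture 16 of the 21 were higher in CAV1-/- MCs and 2 of them at an unadjusted p under 0.05, where 47.8% and 2.76% of all genes were. The median log2 fold change of the list was 0.16. Of the 21, 7 were highest in both leukocyte-rich cultures and 2 were lowest in both, and 12.2% of all genes had each of these orders. The list was not read without these cultures. Nfkbia, the inhibitor that NF-κB itself induces, was at 48.6 and 30.2 CPM in static WT, 44.8 and 19.3 CPM in stretched WT, 82.3 and 84.6 CPM in static CAV1-/- and 49.7 and 67.2 CPM in stretched CAV1-/- MCs. Its 3 highest and 2 lowest cultures were those of Cxcl1. The most abundant of the list were Il1r1, at 16.9 to 372 CPM, Tnfrsf1a, at 112 to 172 CPM, Nfkbiz, at 43.8 to 174 CPM, and Nfkb1, at 80.3 to 124 CPM. Il1r1, the receptor of interleukin-1, was lowest in the leukocyte-rich cultures, at 46.3 and 16.9 CPM, and highest in CAV1-/- replicate 2, at 372 and 320 CPM.

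Of 13 interferon receptors and response factors, 0 passed after adjustment by limma in any comparison, where at most 0.0732% of all genes did. The median log2 fold change of the 13, CAV1-/- over WT, was -0.33 in static and -0.22 in stretched culture. At an unadjusted p under 0.05, 5 were lower in static and 4 in stretched CAV1-/- MCs, where 5.42% and 3.82% of all genes were, and 0 were higher. The most abundant, Ifnar1, was at 73.8 to 115 CPM, Ifngr2 at 66.2 to 92.5 CPM, Ifnar2 at 48.1 to 80.8 CPM and Irf3 at 39.3 to 57.1 CPM. Of 12 carriers and enzymes of heparan sulfate, which holds chemokines at the cell surface, 0 passed in any comparison. At most 0.0732% of all genes did. The most abundant were the syndecan Sdc4, at 296 to 580 CPM, the glypican Gpc1, at 107 to 405 CPM, the polymerase Ext1, at 127 to 259 CPM, and Sdc3, which was at 322 and 470 CPM in the leukocyte-rich cultures and 61.8 to 163 CPM elsewhere.

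Each chemokine was last compared with the 10797 genes of a mean of at least 5 CPM, by the Pearson correlation of log2 levels over the 8 libraries. These libraries come from 4 animals, so the values describe the order of the cultures. The nearest to Cxcl1 were Fndc1 and Nfkbia (both r = 0.98), and the nearest to Cxcl5 were Nfil3 (r = 0.99) and Cxcl1 (r = 0.98). Cxcl2 was nearest to Akr1a1 (r = 0.99) and to Cd274 (r = 0.97), which was at 1.48 to 55.9 CPM. Ccl7 was nearest to Glrx (r = 0.98) and Dse (r = 0.97), and Ccl2 to Rpl27-ps3 and Ch25h (both r = 0.96), the former a pseudogene whose reads are uncertain. The nearest to Cxcl16 were Nudt6 and Krt14 (both r = 0.99). Krt14, a keratin, was at 1.40 to 165 CPM. Cxcl12 was nearest to 2410002F23Rik and to the collagen gene Col1a1 (both r = 0.98), Cx3cl1 to Clcn5 and Kdm2b (both r = 0.99), and Cxcl10 to Eif4b and Cdc42ep3 (both r = 0.97). Among the 9 themselves, Cxcl1 and Cxcl5 were the most alike (r = 0.98), then Cxcl1 and Ccl2 (r = 0.87) and Ccl2 and Ccl7 (r = 0.86).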

How the data were processed

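RNA-seq of 8 mouse MC cultures was re-analysed. Libraries were made from polyA RNA with a kit that does not mark strand, so reads of antisense partners cannot be told apart. Per the study's methods, reads were trimmed with Cutadapt and quantified with RSEM on GRCm38. The authors deposited the signal as TMM-normalized CPM for 13687 genes, without low genes, of which 88 rows lack a symbol. Dividing by the value of 1 read gave whole reads (100% of values, within 0.01 read), and these reads were used for count tests. The study gives another number of replicates than the 2 cultures per group used here.

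Tests used log2(CPM + 1) of the 13665 genes that reached 1 CPM in 2 or more libraries, which removed 22. In R 4.3.3, limma 3.58.1 fitted the 8 libraries together, each group having its own mean, with eBayes and trend, 2-sided tests and Benjamini-Hochberg adjustment at 0.05. An exact permutation test of 2 against 2 cultures cannot give p below 0.333. Cultures of 1 animal deviated together (values below), whereas limma without a block treats all 8 as independent. Its p-values measure the spread between these cultures, which come from 2 animals per genotype. Alternatives were pseudocounts of 0.1 and 5, no filter, a mean of at least 5, median-of-ratios and quantile normalization, eBayes without trend or robust, only the libraries compared, a replicate block, tests of the recovered reads by edgeR 4.0.16 and DESeq2 1.42.0, each culture left out, and both cultures of CAV1-/- replicate 1 left out. The fits were also run on simulated data in which all animals varied alike, without a leukocyte-rich animal. No result here rests on that run.

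Static and stretched cultures of the same animal, paired by the animal number of the labels, deviated together (r = 0.70 in WT and 0.85 in CAV1-/- MCs). Same-numbered animals of different genotypes did so less (r = 0.52 and 0.48). The labels link these animals by a number only and do not say whether they were handled together. The 10 chemokines, the gene lists and the markers were chosen with earlier results of these data known. Named genes are the chemokines, genes of a list that passed the threshold, the 4 most abundant genes of a list and the 2 genes most like each chemokine. Mmp9, Ccl3, Ccl25, Cd74 and H2-Ab1 were chosen after their values were seen. Positions are from GENCODE on GRCm38 and promoters from RefSeq. Of the receptor and marker lists, 2 genes are not reported here.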

Additional observations from a re-analysis of the deposited data

Results flagged for a closer look

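Ccl7 was singled out because its stretch difference had opposite signs in the 2 genotypes. The stretched culture was higher than the static one in both WT animals, by 0.78 and 0.15 on the log2(CPM + 1) scale. It was lower in both CAV1-/- animals, with differences of -0.74 and -0.0027. The last rests on 73.9 against 74.0 CPM in CAV1-/- replicate 2. Its sign reverses once these 2 libraries are divided by their median-of-ratios size factors, 0.997 stretched and 1.00034 static. The difference between genotypes, the interaction term of limma, was -0.84 ± 0.38 (SE), with an unadjusted p of 0.0665 and an adjusted p of 1.000, so it did not pass. The same pattern of signs was seen in 4.11% of all genes (561 genes). Without both cultures of CAV1-/- replicate 1 the interaction of Ccl7 was -0.47. Groups of 2 cultures are too small to search for outlying samples.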

How the results depend on the processing

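Calls of chemokines moved under 2 settings. In static culture the genotype comparison called 2 of the 9 with the replicate block and 3 with DESeq2, and in stretched culture DESeq2 called 1, against 0 by limma. The block changed no other call after adjustment. Of 54 log2 fold changes (9 chemokines in 6 comparisons), 31 changed sign under at least 1 of 21 settings, and none of these 31 passed the threshold in any setting. Those of Cxcl1, Ccl2, Ccl7 and Cxcl16 in the 2 genotype comparisons did not change sign in any setting.

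Leaving out 1 culture at a time gave these ranges of log2 fold change for the estimates that changed sign. For CAV1-/- over WT in static culture they were -0.43 to 1.02 for Cxcl12, -1.34 to 0.041 for Cx3cl1 and -1.40 to 0.85 for Cxcl10. In stretched culture they were -0.84 to 0.95 for Cxcl10, -0.30 to 0.70 for Cxcl12, -0.088 to 4.65 for Cxcl5 and -0.995 to 0.89 for Cx3cl1. For stretch in WT MCs they were -1.72 to 1.58 for Cxcl1, -0.50 to 0.38 for Cxcl2, -2.67 to 2.07 for Cxcl5, -0.58 to 0.39 for Cxcl12, -0.095 to 0.26 for Cxcl16, -1.05 to 0.84 for Cx3cl1 and -0.11 to 0.22 for Ccl2. In CAV1-/- MCs they were -2.92 to 1.00 for Cxcl2, -0.0087 to 0.34 for Cxcl16, -0.20 to 1.18 for Cx3cl1, -1.83 to 0.42 for Cxcl10 and -0.91 to 0.53 for Cxcl12. For the interaction they were -0.82 to 0.63 for Cxcl12, -0.091 to 0.26 for Cxcl16, -0.35 to 1.54 for Cx3cl1, -3.20 to 0.10 for Cxcl1, -3.56 to 1.18 for Cxcl5, -2.86 to 1.06 for Cxcl2 and -0.79 to 1.46 for Cxcl10. For the mean stretch effect they were -0.12 to 0.21 for Ccl7, -0.28 to 0.67 for Cx3cl1, -0.50 to 0.22 for Cxcl12, -2.08 to 0.29 for Cxcl5 and -1.49 to 0.47 for Cxcl2. Some that kept their sign also moved by over 1.5 times, among them stretched CAV1-/- over WT for Cxcl1 (0.19 to 3.49) and Ccl2 (0.015 to 0.80), stretch in WT MCs for Ccl7 (0.13 to 0.80) and stretch in CAV1-/- MCs for Ccl2 (-1.17 to -0.39).

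Without both cultures of CAV1-/- replicate 1, the static genotype difference was 0.85 for Cxcl10 and 0.041 for Cx3cl1, the stretched one 0.54 for Cx3cl1, and for Cxcl2 the stretch effect in CAV1-/- MCs was 0.23, the interaction 0.29 and the mean stretch effect 0.085. On the recovered reads, edgeR and DESeq2 gave 0.15 and 0.17 for Cxcl10 between static genotypes, and for stretch in WT MCs 0.51 and 0.52 for Cxcl1, 0.77 and 0.78 for Cxcl5 and 0.036 and 0.045 for Cx3cl1. For Cxcl1 in WT MCs a pseudocount of 5 gave 0.10 and quantile normalization 0.013, and a pseudocount of 0.1 gave -0.34 for Cxcl10 between stretched genotypes. The causes of these reversals were not tested. The interaction and the mean stretch effect use all 8 libraries, so a fit of only the libraries compared was not run for them. A lone culture left in a group was assumed to vary like the other groups. With 2 animals per genotype, genotype cannot be told apart from the cell makeup of single cultures, and depth cannot be told apart from stretch, since every stretched library was deeper. Transcripts of Cxcl2 and Cxcl10 rest on 0 to 20 reads in several cultures, so counting error is large there. The smallest difference detectable at this depth was not worked out.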
